A study of Mus musculus with 4 samples.

Results

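The genes described here are 40 mouse genes of protein folding in the endoplasmic reticulum (ER), of the unfolded protein response and of ER-associated degradation. They were chosen by name, from a list of their known roles, and every probe set that the platform annotation gives to one of them was taken. The annotation held 38 of the 40 symbols as listed, and Ero1l and Ero1lb were matched through their RefSeq synonyms as Ero1a and Ero1b. They are 40 of 18193 genes named on the array, and hold 94 of its 45037 probe sets that are not controls, with 1 to 5 each. The data are 4 expression arrays of Paneth cells cut from mouse tissue by laser capture, 2 from mice with an Atg16 hypomorph allele and 2 from wildtype mice. A hypomorph allele keeps part of its function, and Atg16l1 encodes a protein of the machinery that builds autophagosomes. All 4 samples had a mixed background of C57BL/6 and 129ola. How the allele was made, and the age and number of the mice, are not stated in the labels, nor is it stated that the arrays of one group hold RNA of different mice. The p-values can therefore speak only of the spread among these 4 samples, part or all of which could be technical, and the low number of arrays limits the precision.

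Proteins bound for secretion fold inside the ER, where chaperones hold unfolded chains, protein disulfide isomerases form and exchange disulfide bonds, and lectin chaperones bind newly added sugars. When unfolded chains accumulate, the membrane sensors encoded by Ern1 and Ern2 (IRE1 alpha and beta), Eif2ak3 (PERK) and Atf6 start the unfolded protein response. IRE1 splices the Xbp1 messenger, PERK slows translation, and ATF6 and spliced XBP1 switch on chaperone and degradation genes. Paneth cells secrete large amounts of antimicrobial protein from a dense ER, and Ern2 is known for its expression in the gut epithelium.

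Many promoters of these genes carry a known control sequence, the ER stress element, to which ATF6 and the factor NF-Y bind. It reads CCAAT, any 9 bases, CCACG. Its short form reads ATTGG, any base, CCACG. RefSeq promoter windows (build GRCm38.p6, 250 bases before to 50 after the start site) were found for 34 of the 40 genes and searched on both strands. The full element was present in 10 of these 34 genes, or 29.4%, against 37 of 27025 genes, or 0.137%, in the whole table. The 10 genes were Hspa5, Hsp90b1, Calr, Canx, Pdia6, Creld2, Derl3, Dnajc3, Ero1b and Syvn1, with 11 matches in all. The short form was found in Herpud1 and Dnajb11 and in 12 genes of the table, or 0.0444%. None of these matches overlapped another motif searched. A match describes the letters and does not show that a factor binds there. The windows of 6 main targets are printed because their levels are the ones on which a response of this pathway would be read. They run 5′ to 3′ along the gene's strand, and capitals mark the fixed bases of the element. On the opposite strand the element appears as CGTGG, any 9 bases, ATTGG.
Hspa5 (chr2:34772015-34772053, plus strand): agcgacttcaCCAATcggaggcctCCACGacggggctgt
Hsp90b1 (chr10:86705523-86705561, minus strand): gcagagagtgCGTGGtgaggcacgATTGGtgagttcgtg
Calr (chr8:84847065-84847103, minus strand): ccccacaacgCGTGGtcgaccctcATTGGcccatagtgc
Canx (chr11:50325790-50325828, minus strand): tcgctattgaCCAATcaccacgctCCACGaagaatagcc
Pdia6 (chr12:17266481-17266519, plus strand): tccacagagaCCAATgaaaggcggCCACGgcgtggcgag
Herpud1 (chr8:94386367-94386397, plus strand): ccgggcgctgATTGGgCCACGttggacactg
In Hspa5 the element spans bases -65 to -47 from the start site, in Pdia6 -98 to -80 and in Canx -145 to -127. Hsp90b1 had a second match further upstream, at bases -212 to -194.

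Values are the intensities that the authors deposited, on a linear scale and 1 per probe set and array. Median intensity lay between 47.4 and 49.6 on the 4 arrays. Of 12 Paneth cell markers on the array 11 passed the brightness filter, and the defensin probe set Defa3 did not, at 1.36 to 3.84 on the 4 arrays. Another defensin probe set, Defa31, was bright, at 7168 and 8007 on the hypomorph arrays, against 8543 and 8559 on the wildtype arrays (-0.17; limma, adjusted p = 0.152). Of the 11 tested 9 differences were below 0 and 2 above, with sums over the list of 75447 and 81256 on the hypomorph arrays, against 79811 and 80895 on the wildtype arrays. Limma called only Reg3g, an antimicrobial lectin, which rose to 8023 and 8810 against 6983 and 7066 in wildtype (0.26; adjusted p = 0.0453). Lyz1, the Paneth cell lysozyme, read 14561 and 15097 on the hypomorph arrays, against 15481 and 16021 on the wildtype arrays, and the protease gene Mmp7 8463 and 9486, against 9063 and 9314. Atg16l1 itself read 966 and 995 on the hypomorph arrays, against 1335 and 1183 on the wildtype arrays, and missed the threshold (limma, adjusted p = 0.102). Xist, an RNA of female cells, read 4414 and 4510 on the hypomorph arrays, against 18.0 and 25.6 on the wildtype arrays, so the groups also differed in a marker of sex. Markers of other cells moved with the groups too. Of fat cell markers that passed the brightness filter 8 of 9 were called higher in hypomorph, with summed intensities of 27647 and 27121 against 9854 and 9890 in wildtype. Of enterocyte markers 8 of 12 were called higher, with sums of 33953 and 35456 against 24457 and 25185. Plasma cells and pancreatic acinar cells are other cells rich in ER chaperones. The summed plasma cell markers read 23370 and 23704 on the hypomorph arrays, against 24129 and 24625 on the wildtype arrays, and of 9 tested only Ighm was called, as lower. Both Igha, at 11160 and 12060 against 11925 and 12455, and Jchain, at 6185 and 5771 against 5606 and 5554, were bright in every sample. Acinar markers summed to 423 and 429 on the hypomorph arrays, against 455 and 419 on the wildtype arrays, and 8 of 11, among them Cpa1, Cel and Ctrb1, lay below the filter. Of 9 enteroendocrine markers 4 were called lower, with sums of 9315 and 9735 against 13000.0 and 12150.0, and of 8 fibroblast markers 4 were called higher. Of 6 T cell and macrophage markers 2 were called higher, the granzymes Gzmb (1.40; limma, adjusted p = 0.00187) and Gzma (0.74; limma, adjusted p = 0.00323). The part that any of these cells had in the values below was not tested, and fewer cells of a type cannot be told apart from less RNA per cell.

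The comparison of hypomorph with wildtype asks how reduced Atg16l1 function bears on transcription in Paneth cells. None of the 40 genes changed by the test. The brightest probe set stood for each gene, all 40 of these passed the brightness filter, and limma on log2(intensity + 32) called 0 higher and 0 lower at an adjusted p under 0.05. Of all 11577 genes tested 2.53% were called higher and 1.70% lower, so a count of 0 of 40 is near what the background gives. At an unadjusted p under 0.05 there were 7 of the 40, against 21.7% of all genes. The arrays of the groups did not overlap for 11 genes that were higher in hypomorph, where the background is 23.4%, and for 12 that were lower, where it is 30.0%. The other 17 overlapped. Each difference below is the hypomorph mean minus the wildtype mean of log2(intensity + 32), a scale on which changes of dim genes are understated.

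The differences of these genes were small and lay on both sides of 0. They ran from -0.48 for Edem2 to 0.35 for Atf6, with a median of -0.05, beside a median of -0.02 over all genes tested. Their median absolute difference was 0.12, against 0.15 over all genes. Inside the groups the 2 hypomorph arrays differed from each other by a median of 0.094 on this scale over the 40 genes, and the 2 wildtype arrays by 0.075. Over all genes tested these medians were larger too, at 0.131 and 0.108. These are differences of single arrays, while the groups are compared by means of 2 arrays, which vary less. The sizes are therefore not directly comparable. For 37 of the 40 genes the 95% interval of the difference from limma, which is not adjusted for the number of genes, lay within 1.5-fold in either direction. That was so for 71.3% of all genes tested, whose median SE was larger, at 0.137 against 0.088 for the 40 genes. The 2 shares therefore partly reflect the width of the intervals. The exceptions were Edem2 (-0.89 to -0.07), Sdf2l1 (-0.11 to 0.65) and Atf6 (-0.05 to 0.75), whose arrays read between 69.4 and 194. The bound of 1.5-fold was chosen after the values were seen.

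**Figure D1:**
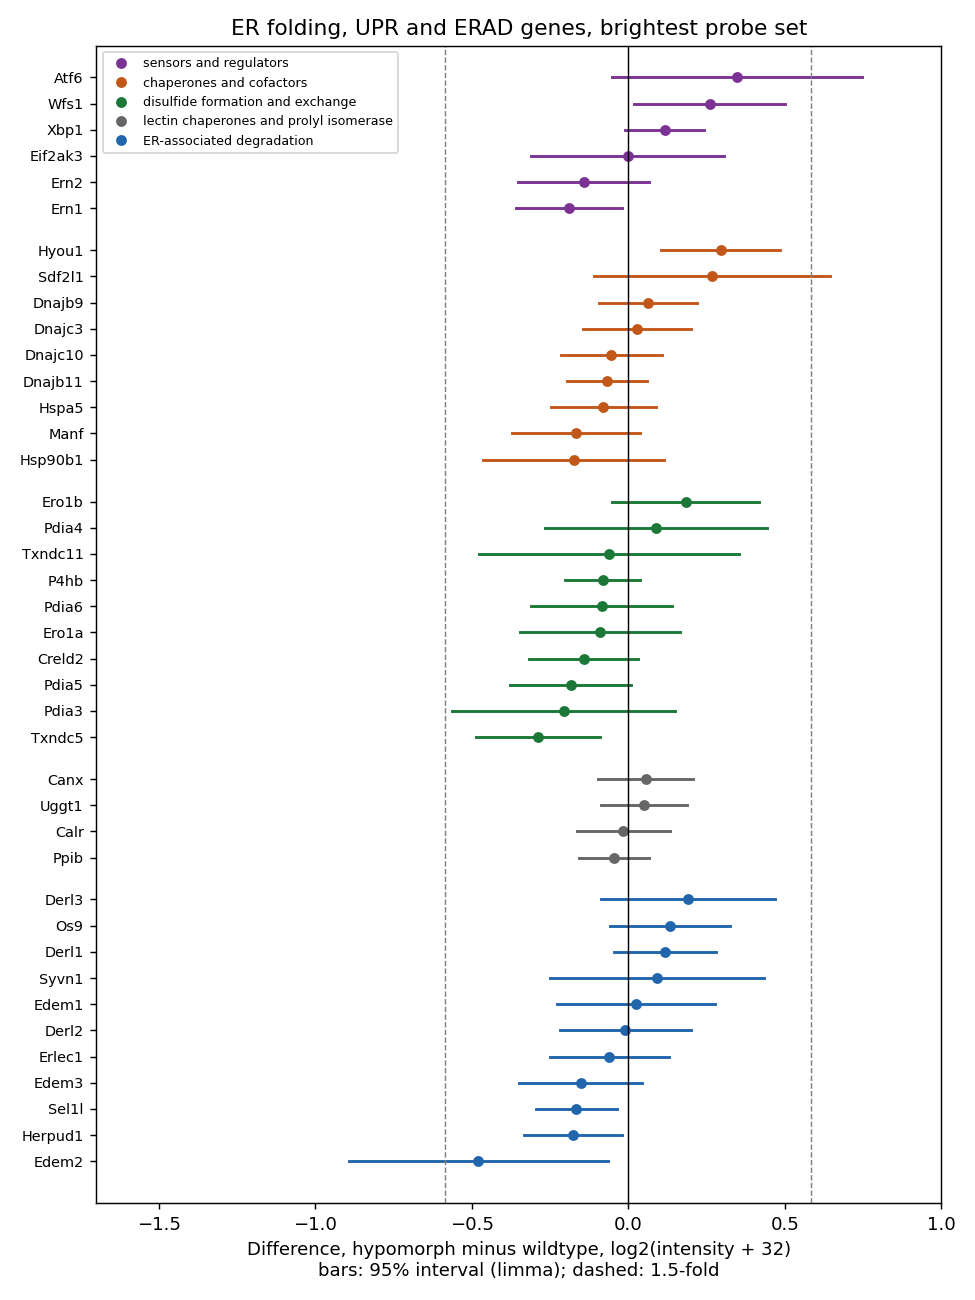
Difference between hypomorph and wildtype for the brightest probe set of each of the 40 genes, grouped by role. Points are differences on the log2(intensity + 32) scale, bars are 95% intervals from limma and dashed lines mark 1.5-fold on that scale. Most bars cross 0, and only those of Edem2, Sdf2l1 and Atf6 reach past a dashed line.

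**Figure D2:**
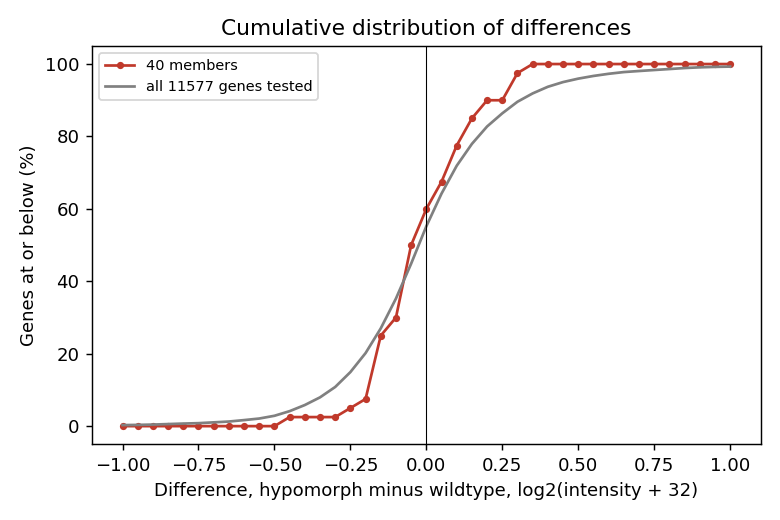
Share of genes (%, vertical axis) whose difference (hypomorph minus wildtype, log2(intensity + 32)) is at or below the value on the horizontal axis, for the 40 genes (points) and for all 11577 genes tested (line). The curve of the 40 genes reaches 100% at 0.35, while that of all genes is at 91.9% there.

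Among the sensors and their regulators limma called 0 of 6, with 2 at an unadjusted p under 0.05, and the median difference was 0.06. Ern1 read 2246 and 2289 on the hypomorph arrays, against 2560 and 2621 on the wildtype arrays. Both hypomorph values were below both wildtype values, with a difference of -0.19 (SE 0.08; limma, adjusted p = 0.199). Ern2, the gut form of the same sensor, read 1704 and 1818, against 1830 and 2069 in wildtype. It too was lower on both hypomorph arrays, by a narrow margin (-0.14; limma, adjusted p = 0.426). Eif2ak3 read 591 and 610 on the hypomorph arrays, both between the wildtype values of 534 and 678, and its difference was 0.00 with an interval of -0.31 to 0.31. Atf6 read 179 and 194 on the hypomorph arrays, against 165 and 117 on the wildtype arrays. Its values did not overlap, but most of that gap came from wildtype replicate 2, and the difference of 0.35 (SE 0.18) did not pass (limma, adjusted p = 0.307).

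Xbp1, the transcription factor activated by IRE1, read 7222 and 7502 on the hypomorph arrays, against 6988 and 6599 on the wildtype arrays. The difference was 0.12 (interval -0.01 to 0.24; limma, adjusted p = 0.287), so the level of the messenger was higher on both hypomorph arrays by less than the test resolves. These intensities do not separate spliced from unspliced Xbp1, and splicing was not analysed here. Wfs1, which encodes an ER membrane protein known to restrain ATF6, read 854 and 872 on the hypomorph arrays, against 706 and 724 on the wildtype arrays. The arrays within each group were close to each other and the groups did not overlap, but the difference of 0.26 (SE 0.11) missed the threshold (limma, adjusted p = 0.211).

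Among the chaperones HSPA5 (BiP) and HSP90B1 (GRP94) and their cofactors limma called 0 of 9, with 1 at an unadjusted p under 0.05, and the median difference was -0.05. Hspa5, the Hsp70 of the ER and the standard readout of ER stress, read 5070 and 4415 on the hypomorph arrays, against 4981 and 5022 on the wildtype arrays. The hypomorph arrays lay on both sides of the wildtype ones, and the interval of -0.25 to 0.09 corresponds to 0.843-fold to 1.06-fold. Hsp90b1, the Hsp90 of the ER, read 2318 and 1848, against 2621 and 2088 in wildtype. Replicate 1 was above replicate 2 in both groups, and the groups overlapped (-0.17; limma, adjusted p = 0.484).

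Hyou1, a nucleotide exchange factor of BiP, read 3404 and 2947 on the hypomorph arrays, against 2588 and 2564 on the wildtype arrays. It had the smallest adjusted p of the 40 genes without passing the threshold, at a difference of 0.30 (SE 0.09; limma, adjusted p = 0.0918). It was called without hypomorph replicate 2, its lower hypomorph array, at a difference of 0.40 (limma, adjusted p = 0.0195). With the mean of all its probe sets the difference was 0.16 (limma, adjusted p = 0.489), but its other probe sets lay below the brightness filter. Sdf2l1, a partner of the ER J-domain proteins, read 180 and 145 on the hypomorph arrays, against 138 and 121 on the wildtype arrays, and did not pass either. The J-domain cofactors deliver clients to BiP. By their brightest probe sets Dnajb9 differed by 0.06, Dnajc3 by 0.03, Dnajc10 by -0.05 and Dnajb11 by -0.07, each with an interval that holds 0. The reading of Dnajc3 depended on the probe set, since the mean of all its probe sets gave -0.26 (limma, adjusted p = 0.175) and another probe set, described below, was called lower at -1.03. Manf, a secreted and ER-resident cofactor of BiP, read 1335 and 1390 on the hypomorph arrays, against 1494 and 1571 on the wildtype arrays (-0.17; limma, adjusted p = 0.34).

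**Figure D3:**
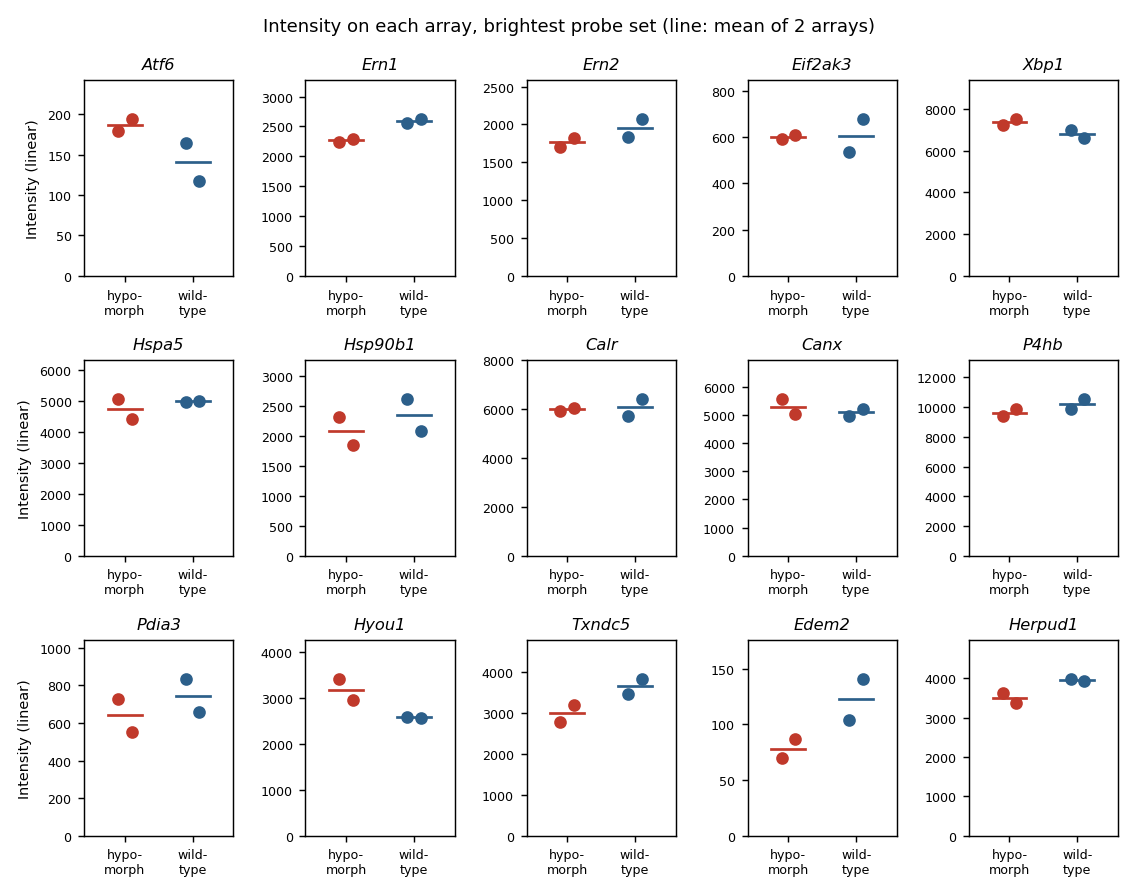
Intensity (linear, from 0) of 15 of the genes on each array, by the brightest probe set, with hypomorph left of wildtype. Points are arrays and lines are means of 2. Hspa5, Hsp90b1, Calr, Canx, P4hb, Pdia3 and Eif2ak3 overlap between groups. Hyou1, Atf6 and Xbp1 are higher and Ern1, Ern2, Txndc5, Edem2 and Herpud1 are lower on both hypomorph arrays.

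Of the 10 genes of disulfide formation and exchange limma called 0, with 1 at an unadjusted p under 0.05. Of their differences 8 were below 0 and the median was -0.09. P4hb, the founding protein disulfide isomerase, read 9383 and 9887 on the hypomorph arrays, against 9866 and 10536 on the wildtype arrays. The groups overlapped, with a difference of -0.08 (interval -0.20 to 0.04). Pdia3, the isomerase that works with the lectin chaperones, read 730 and 555, against 834 and 656 in wildtype, and overlapped as well (-0.21; limma, adjusted p = 0.501). Txndc5, another thioredoxin-fold protein of the ER, read 2762 and 3199 on the hypomorph arrays, against 3464 and 3819 on the wildtype arrays. Both hypomorph arrays were lower, by 0.29 (SE 0.09), and the adjusted p of 0.109 from limma became 0.0224 without hypomorph replicate 2. A second tested probe set of Txndc5 ran the other way, at 2032 and 2135 on the hypomorph arrays, against 1883 and 1834 on the wildtype arrays (0.16; limma, adjusted p = 0.305), and the mean of both gave -0.06.

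Ero1b, an oxidase that recharges the isomerases and is best known from secretory cells, read 1027 and 1008 on the hypomorph arrays, against 929.6 and 856 on the wildtype arrays. This was the largest positive difference of the oxidative folding genes, at 0.18 (limma, adjusted p = 0.36), while Ero1a, its broadly expressed relative, overlapped between groups (-0.09). Pdia5 (-0.18) and Creld2 (-0.14), a secreted protein with disulfide exchange activity, were lower on both hypomorph arrays. Pdia4 (0.09), Pdia6 (-0.08) and Txndc11 (-0.06) completed the group, and the smallest adjusted p of these 5 in limma was 0.267.

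The 4 lectin chaperone and prolyl isomerase genes had a median absolute difference of 0.05, and limma called 0 of them, with 0 at an unadjusted p under 0.05. Calr, the soluble lectin chaperone calreticulin, read 5925 and 6053 on the hypomorph arrays, both between the wildtype values of 5727 and 6407. Canx, its membrane-bound relative calnexin, read 5560 and 5027 on the hypomorph arrays, against 4972 and 5207 on the wildtype arrays, and the groups overlapped. Uggt1, which returns misfolded glycoproteins to the lectins, read 4571 and 4563, against 4448 and 4377 in wildtype, and Ppib, a cyclophilin that turns proline bonds, read 8600 and 9007, against 9062 and 9104. The 4 differences lay between -0.05 and 0.06, and their smallest adjusted p was 0.656 (limma).

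Of the 11 genes of ER-associated degradation, which moves misfolded proteins to the cytosol, limma called 0, with 3 at an unadjusted p under 0.05, and the median difference was -0.01. Sel1l, the scaffold of the HRD1 ubiquitin ligase, read 5405 and 5629 on the hypomorph arrays, against 6161 and 6223 on the wildtype arrays. The gap between groups exceeded the gap within each, but the difference of -0.17 (SE 0.06) did not pass (limma, adjusted p = 0.147). A second tested probe set of Sel1l gave -0.15. Syvn1, the HRD1 ligase itself, read 2085 and 1404 on the hypomorph arrays, against 1560 and 1649 on the wildtype arrays. Its hypomorph arrays stood on opposite sides of wildtype, so that its difference was 0.37 without hypomorph replicate 2 and -0.19 without hypomorph replicate 1. Herpud1, which organises the ligase complex and is strongly induced by ER stress in cultured cells, read 3636 and 3370.5 on the hypomorph arrays, against 3980 and 3942 on the wildtype arrays. Both hypomorph values were lower, by 0.18 (limma, adjusted p = 0.193). A dimmer tested probe set of Herpud1 overlapped between groups, at 496 and 431 on the hypomorph arrays, against 479 and 442 on the wildtype arrays (0.01).

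Among the mannosidase-like proteins that mark glycoproteins for disposal, Edem2 had the largest absolute difference of the 40 genes. It read 69.4 and 87.1 on the hypomorph arrays, against 104 and 141 on the wildtype arrays, a difference of -0.48 (SE 0.18; limma, adjusted p = 0.184). Its arrays did not overlap, but its intensities lay near the brightness filter, which corresponds to an intensity of about 47.7. Edem1 overlapped between groups (0.02), and Edem3 read 1442 and 1432 on the hypomorph arrays, against 1614 and 1588 on the wildtype arrays (-0.15; limma, adjusted p = 0.363). Of the derlins, which line the exit channel, Derl3 was higher on both hypomorph arrays at 590 and 674, against 555 and 542 in wildtype (0.19; limma, adjusted p = 0.421). By their brightest probe sets Derl1 (0.12) and Derl2 (-0.01) overlapped. Other tested probe sets of Derl1 gave 0.25 and 0.23, both higher on both hypomorph arrays, and -0.01, which overlapped (limma, adjusted p = 0.172, 0.307 and 0.982). The lectins that recognise trimmed sugars, Os9 (0.13) and Erlec1 (-0.06), did not pass.

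Probe sets of the same gene did not always run the same way. Of the 94 probe sets 76 passed the filter, and besides the brightest ones these were 36 further probe sets of 23 genes. Their sign matched that of the brightest in 22 cases and opposed it in 14. Of the 76, limma called 0 higher and 1 lower, where 2.04% and 1.67% of all probe sets tested were called. The called one was a dim probe set of Dnajc3, 1419163_s_at, at 53.6 and 56.7 on the hypomorph arrays, against 144 and 148 on the wildtype arrays. Its arrays within each group were nearly equal, and the difference was -1.03 (SE 0.16; limma, adjusted p = 0.00702). The other 3 tested probe sets of Dnajc3, which encodes an ER cochaperone also known as P58IPK, were brighter and differed by 0.03, 0.12 and -0.08. With no brightness filter the call of the dim probe set was lost (limma, adjusted p = 0.0533). Which part of the transcript each probe set reads was not analysed here.

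A similar split was seen for other genes. Ern1 had a dim second probe set at 59.8 and 82.8 on the hypomorph arrays, against 30.2 and 53.1 on the wildtype arrays (0.50; limma, adjusted p = 0.209), of opposite sign to its bright one. The other probe sets of Atf6 gave -0.25 and -0.12, against 0.35 for the brightest. Hspa5 gave 0.16 and -0.23 beside -0.08, Canx -0.16 and -0.41 beside 0.06, and the 4 probe sets of Xbp1 lay between -0.07 and 0.12. The 3 probe sets of Calr all lay between -0.08 and -0.02. The sign of the difference thus depended on the probe set for Atf6, Ern1, Txndc5, Hspa5, Canx and Xbp1, among others.

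**Figure D4:**
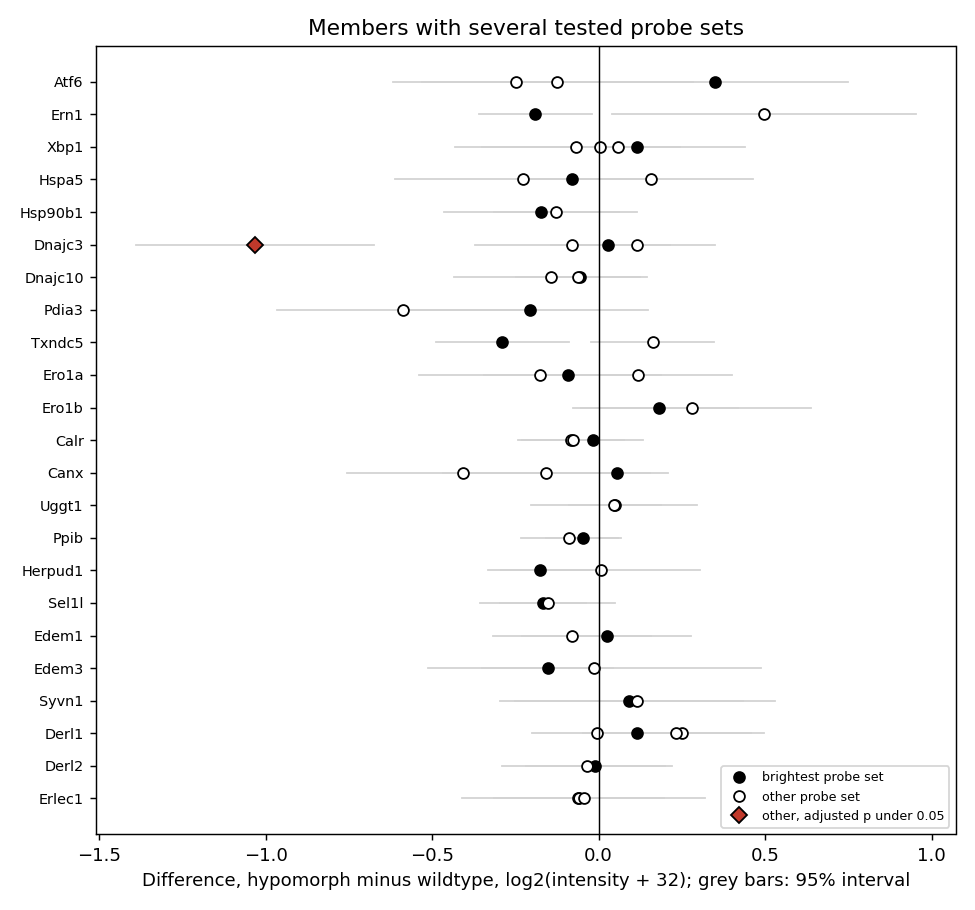
Difference (hypomorph minus wildtype, log2(intensity + 32)) of every tested probe set of the 23 genes with more than 1, with 95% intervals from limma in grey. Filled circles are the brightest probe sets, open circles the others, and the diamond is the called probe set of Dnajc3 at -1.03.

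Of the 40 genes Pdia3, Hspa5, Dnajc10 and Edem2 lie on chromosome 2. Pdia3 stands in RefSeq gene order between Tmem87a, which read 359 and 290.2 on the hypomorph arrays against 6.81 and 7.30 on the wildtype arrays, and Spata5l1, which read 35.2 and 33.6 against 718 and 724. Among its 50 nearest tested neighbours on the chromosome 5 were called higher and 5 lower. For Hspa5 and for Edem2 both counts were 0 of 50, and for Dnajc10 they were 1 and 1. The second probe set of Pdia3 read 56.2 and 68.9 on the hypomorph arrays, against 103 and 117 on the wildtype arrays (-0.59; limma, adjusted p = 0.0898). This neighbourhood was looked at after the values were seen, and its part in the values of Pdia3 was not tested.

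Beyond the 40 genes, 97 further genes of signalling, folding and degradation in the ER were on the array, and 86 passed the filter. Of these 2 were called higher and 3 lower, where the background is the 2.53% and 1.70% given above, and 17 of 86 had an unadjusted p under 0.05, where the background is 21.7%. The median difference was 0.02. In signalling 2 of 17 rose and 1 fell, in folding 0 of 41 rose and 2 fell, and in degradation 0 of 28 changed. At an unadjusted p under 0.05 in limma there were 7 of the 17 in signalling, 7 of the 41 in folding and 3 of the 28 in degradation. Trib3, a pseudokinase induced by ATF4, rose to 338 and 350 on the hypomorph arrays, against 189 and 167 on the wildtype arrays (0.84, SE 0.15; limma, adjusted p = 0.014). With the mean of all its probe sets the difference was 0.47 and did not pass, and the call was also lost without wildtype replicate 2 (limma, adjusted p = 0.0712). Creb3l3, an ER-anchored transcription factor of liver and small intestine, rose to 174 and 146, against 72.3 and 74.7 in wildtype (0.86, SE 0.17; limma, adjusted p = 0.0216). Its call was lost without hypomorph replicate 1 and without either wildtype replicate, and enterocyte markers were higher on the same arrays, as given above.

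Mbtps2, the site-2 protease that releases ATF6 from the membrane, fell to 839 and 995 on the hypomorph arrays, against 1357 and 1284 on the wildtype arrays (-0.52, SE 0.11; limma, adjusted p = 0.0376). This gene lies on chromosome X, and the groups differed in Xist, as given above. The part of sex in its values was not tested. The folding genes that fell were Agr3, a disulfide isomerase relative, at 63.1 and 39.8 against 128.2 and 121 in wildtype (-0.92), and P4ha1, a collagen prolyl hydroxylase, at 86.5 and 150.1 against 237 and 266 (-0.95). The calls of Agr3, P4ha1 and Mbtps2 were each lost without wildtype replicate 1 and without wildtype replicate 2, with adjusted p-values of up to 0.145 in limma, and those of P4ha1 and Mbtps2 also without hypomorph replicate 1. With the mean of all probe sets P4ha1 gave -0.29, and the calls of P4ha1 and Mbtps2 were lost (limma, adjusted p = 0.308 and 0.0559). With no brightness filter all 5 calls, of Trib3, Creb3l3, Mbtps2, Agr3 and P4ha1, were lost, at adjusted p-values of 0.0562 to 0.156 in limma, and those of Mbtps2, Agr3 and P4ha1 were lost with no intensity trend. Agr2, an isomerase relative of mucus-secreting cells, read 5865 and 6326 on the hypomorph arrays, against 7007 and 7280 on the wildtype arrays, and did not pass (-0.23; limma, adjusted p = 0.0693). It did pass without hypomorph replicate 2.

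Among the genes downstream of PERK, Atf4, Ddit3 and Ppp1r15a, like Agr2 above, were named after their values were seen. None of these 4 genes was called in the main fit on all 4 arrays, and the closing section gives Atf4 and Agr2 with a replicate block. Atf4, which PERK signalling translates, read 7132 and 5652 on the hypomorph arrays, against 5224 and 5148 on the wildtype arrays, with hypomorph replicate 1 well above the rest (0.29; limma, adjusted p = 0.124). Without hypomorph replicate 2 the difference was 0.46 and passed. Ddit3, the death-linked factor CHOP, read 322 and 233 on the hypomorph arrays, against 274 and 251 on the wildtype arrays, and the groups overlapped (0.06; limma, adjusted p = 0.888). Ppp1r15a, which reverses the PERK signal, read 75.6 and 77.3, against 91.4 and 80.7 in wildtype (-0.12; limma, adjusted p = 0.725).

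**Figure D5:**
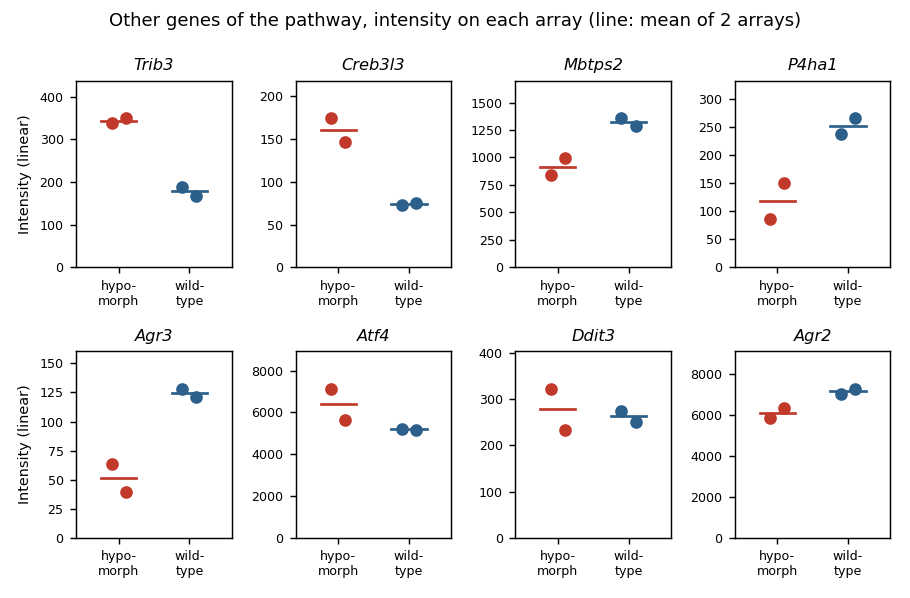
Intensity (linear, from 0) of the 5 called genes among the 86 further pathway genes tested, and of Atf4, Ddit3 and Agr2, on each array, with hypomorph left of wildtype. Points are arrays and lines are means of 2. Trib3 and Creb3l3 are higher and Mbtps2, P4ha1 and Agr3 lower on both hypomorph arrays, and Ddit3 overlaps.

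The differences of genes with an ER stress element in their promoter lay on both sides of 0. For the 10 with the full element they ran from -0.17 for Hsp90b1 to 0.19 for Derl3, with a median of 0.01, and the median of the 24 matched genes without the full element was -0.06. Herpud1 and Dnajb11, with the short form, differed by -0.18 and -0.07. The XBP1 element, TGACGTGG, was present in Txndc5 and Txndc11 and in 0.714% of the genes in the table. The ATF4 composite, TGATGCAAT, was in 0 of the 34 windows and in 0.222% of the genes.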

How the data were processed

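Total RNA of laser-captured Paneth cells was amplified and labelled with biotin, per the labels' protocols, and hybridised to 1-colour arrays. The authors deposited linear intensity values, 1 per probe set. The background correction, summary method and scaling behind them are not stated in the labels or files. Means trimmed by 2% per end ran from 357 to 365, so no scaling was added. Of 45101 probe sets 64 controls were left out. Symbols came from the platform annotation (34945 probe sets with 1 symbol, 932 with several, 9160 with none).

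A pseudocount of 32 was added to each intensity before the log2 step. The brightness filter removed probe sets whose mean log2 value over the 4 arrays was under the median of 6.32, and 22519 remained. limma 3.58.1 under R 4.3.3 was fitted with group as the only term (eBayes with an intensity trend, 2 residual and 7.81 prior degrees of freedom) with Benjamini-Hochberg adjustment over all probe sets tested. Calls are two-sided at 0.05. The fit was tested on simulated data. The members, gene lists and the rule for named genes (all 40, with array values for called genes, sensors, main chaperones and the extremes of each role) were chosen with earlier results of these data known. Array values of some other genes are given too, chosen after their values were seen. Brightness served to choose and describe probe sets of a gene, and levels of different genes were not compared. The alternatives are in the closing section. No value column was left out.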

Additional observations from a re-analysis of the deposited data

How the results depend on the processing

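Scaling (quantile, median centring), a smaller and a larger pseudocount, no brightness filter or one at the 75th percentile (35 of the 40 genes left), no intensity trend and a robust prior each left 0 of the genes called higher and 0 lower, as did averaging each gene over its probe sets (37 left). Same-numbered arrays deviated together from their group means (correlation 0.264), but the labels do not say what a number marks. With the replicate number as a block limma called 1 higher, Hyou1, and 2 lower, Txndc5 and Edem2, as part of 853 higher and 884 lower calls among all genes, against 293 and 197. Of the further pathway genes, the block also brought Atf4 (adjusted p = 0.00026), Agr2 (0.00318), Fkbp11 (0.0139) and Nfe2l2 (0.0134) past the threshold in limma. Nfe2l2 also passed with the mean of all its probe sets, without a block. Not every gene of that list was looked at with the block. Over all genes 117 were higher and 60 lower with no filter, 120 and 53 with no intensity trend, and 187 and 102 with the mean of all probe sets. Leaving out each array gave 0 to 1 of the 40 genes higher, 0 to 1 lower, and 189 to 381 higher and 86 to 478 lower of all genes. Both calls came without hypomorph replicate 2, where the lone hypomorph array is assumed to vary like wildtype. The median difference of the 40 genes stayed between -0.06 and -0.02 in all these settings.

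Signs of uncalled differences turned with the mean of all probe sets for Atf6 (-0.0083), Ern1 (0.10), Dnajc3 (-0.26), Canx (-0.17) and Edem1 (-0.028), and with quantile normalization for Eif2ak3 (0.013). For Ern1 and Dnajc3 that mean takes in probe sets below the brightness filter. Without 1 array the differences that crossed 0 ran from -0.17 to 0.16 for Eif2ak3, -0.18 to 0.020 for Hspa5, -0.034 to 0.090 for Dnajc3, -0.20 to 0.029 for Pdia6, -0.21 to 0.089 for Txndc11, -0.20 to 0.018 for Ero1a, -0.10 to 0.064 for Calr, -0.017 to 0.13 for Canx, -0.13 to 0.18 for Edem1, -0.19 to 0.37 for Syvn1, -0.065 to 0.046 for Derl2 and -0.15 to 0.27 for Ddit3. The cause was not tested. The dim probe set of Dnajc3 was called without each array in turn (limma, adjusted p of at most 0.0365). With 2 arrays per group the median SE of the 40 genes was 0.088, against a median absolute difference of 0.12, so most differences of this size are too small for the test to call.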

Other observations

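Promoter motifs of the pathway were also present in genes outside the 40. The shares below stand beside 21.7% of all genes tested with an unadjusted p under 0.05 in limma. The full ER stress element was in the RefSeq window (GRCm38.p6) of 4 other tested genes. All 4 had an unadjusted p under 0.05, with a median difference of 0.03, but 4 genes are too few to weigh that share. Limma called 1, the acetyl-CoA carboxylase gene Acacb, at 436 and 439.6 on the hypomorph arrays, against 214 and 239.8 on the wildtype arrays (0.86, SE 0.14; limma, adjusted p = 0.00946). Fat cell and enterocyte markers were higher on the same arrays, as given above, and their part in the values of Acacb was not tested. The short form was in 6 other tested genes, of which 0 were called and 1 had an unadjusted p under 0.05 in limma. The XBP1 element was in 96 others, of which 0 were called and 15 had an unadjusted p under 0.05, with a median difference of -0.04. The ATF4 composite was in 12 others, of which 1 was called higher and 5 had an unadjusted p under 0.05, with a median difference of 0.07. These are counts of letters in a window, and binding was not measured here.

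All 10 markers of goblet cells on the array, another secretory cell of the crypt, passed the brightness filter. Muc2, the main intestinal mucin, read 6241 and 6470.0 on the hypomorph arrays, against 7062 and 7327 on the wildtype arrays (-0.18; limma, adjusted p = 0.114). Clca1, another marker, ran the other way at 1247 and 1331, against 957 and 1186 in wildtype (0.27; limma, adjusted p = 0.241). Of the 10 goblet cell markers tested limma called 0, with 4 at an unadjusted p under 0.05. Their differences were above 0 for 5 and below 0 for 5, with a median of 0.00.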
